A study of Mus musculus with 7 samples.

Results

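The 9 genes described here encode the enzymes that write and erase DNA methylation and 2 of their cofactors: *Dnmt3a*, *Dnmt3b*, *Dnmt3c* and *Dnmt3l* of de novo methylation, *Dnmt1* and *Uhrf1* of maintenance methylation, and the dioxygenases *Tet1*, *Tet2* and *Tet3*. They were chosen by gene name, with earlier results of these data known, and are 9 of the 20643 genes in the table. For 8 of them the table carries the symbol. *Dnmt3c* has no symbol there and was found by its Ensembl ID, ENSMUSG00000082079. All 9 had values in every library, and no filter on low values was applied to them.

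DNA methylation in the male germ line is erased in primordial germ cells and laid down again in prospermatogonia, the mitotically arrested germ cells of the fetal testis, where the paternally methylated imprinting control regions also gain their mark. DNMT3A and DNMT3B add methyl groups to unmethylated cytosines, DNMT3L has no catalytic activity but stimulates DNMT3A, and DNMT3C is a rodent enzyme that methylates promoters of young retrotransposons in male germ cells. DNMT1 copies methylation onto the new strand after replication, guided by UHRF1, while the TET enzymes oxidise 5-methylcytosine and so open a way to its removal.

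Total RNA was sequenced from EGFP+ prospermatogonia of 15.5 dpc fetal testes (the source name of the labels says 15 dpc) in 7 libraries of 3 genotypes. The H19Ter+neo/H19Ter+neo group (3 libraries, replicates 5, 6 and 7) is homozygous for a transcription terminator placed beside the *H19/Igf2* imprinting control region, together with a Pgkneo selection cassette. The H19Ter/H19Ter group (2 libraries, replicates 3 and 4) is homozygous for the terminator after Cre removed that cassette, and the WT group (2 libraries, replicates 1 and 2) has neither. Cells were sorted by EGFP from the *Pou5f1* promoter-driven transgene of the TgOG2 line, both mutant alleles descend from 1 targeted embryonic stem cell line, and testes were pooled for digestion. The sources used here do not state the litter behind each library, so p-values measure the spread between libraries, which may be partly technical. Per the paper's methods, homozygous fetuses had a mother and a father of their own homozygous genotype. Libraries of different genotypes therefore shared no litter, and an effect of genotype cannot be told apart from one of litter or cross.

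The libraries held 84.1, 86.3 and 87.3 M read pairs in genes in H19Ter+neo, 51.2 and 37.5 M in H19Ter, and 45.1 and 45.9 M in WT, so the H19Ter+neo libraries were the deepest. The table lists mouse genes only, not the inserted cassette, and the genotype labels were not checked here. The 13 germ cell markers summed to 4125 to 4262 CPM (read pairs per M, after scaling between libraries) in H19Ter+neo, 3617 to 3695 CPM in H19Ter and 3928 to 4133 CPM in WT, and all had values above 1 CPM in some library. Their median log2 CPM had another order, at 7.21 to 7.53 in H19Ter+neo, 7.96 in both H19Ter libraries and 7.95 to 8.01 in WT. The 13 markers include *Mael* and *Piwil4*, both called higher in H19Ter+neo against WT (below), which raises the sum there. Sertoli markers summed to 30.4 to 39.9, 36.6 to 42.8 and 33.9 to 35.1 CPM in the same order of genotypes, Leydig markers to 6.19 to 32.0, 12.1 to 28.3 and 12.6 to 16.8 CPM, and interstitial and peritubular markers to 50.8 to 90.9, 65.6 to 131 and 55.6 to 69.3 CPM. Macrophage and leukocyte markers reached at most 8.51 CPM in sum, with 6 of 10 (*Ptprc* and *Csf1r* among them) listed with no value, and erythroid markers summed to 5.04 to 6.44 CPM in H19Ter+neo, 3.51 to 4.21 CPM in H19Ter and at most 3.55 CPM in WT, with 7 of 9 listed with no value, all globins included. In such bulk libraries fewer cells of a type and less RNA per cell cannot be told apart.

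Differences were tested with limma on the log2 CPM values over all 20643 genes, two-sided, and a gene was called at a Benjamini-Hochberg adjusted p under 0.05. Of the 9 genes, 8 were called in H19Ter+neo against WT, 4 higher and 4 lower, where 54.4% of all genes tested were called (27.7% higher and 26.7% lower). In H19Ter against WT, 5 of 9 were called, 4 higher and 1 lower, against 25.1% of all genes (14.1% higher and 11.0% lower). In H19Ter+neo against H19Ter, 4 of 9 were called, all lower in H19Ter+neo, against 27.7% of all genes (12.5% higher and 15.2% lower). With every library scaled to the same total, the share of all calls that were higher was 72.5% in place of 56.2% in H19Ter against WT, and 32.0% in place of 45.3% in H19Ter+neo against H19Ter. The 2 comparisons with WT share the same WT libraries, so their results are not independent of each other.

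**Figure D1:**
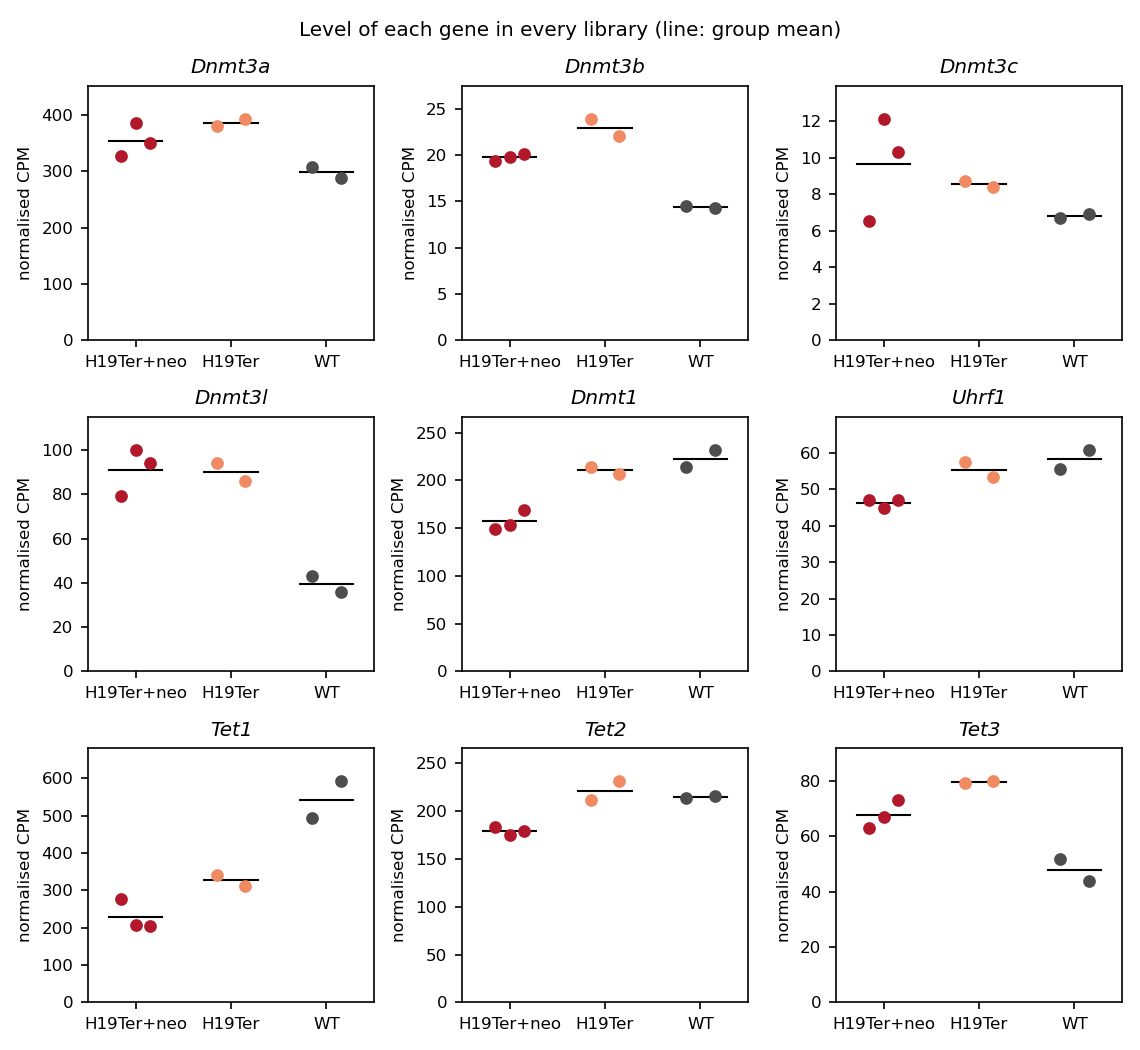
Each panel shows the normalised CPM of 1 gene (vertical axis, from 0), with a point for each library and a line at the group mean, for H19Ter+neo (3 libraries), H19Ter (2) and WT (2) from left to right. *Dnmt3l* lay between 79.4 and 100.0 CPM in the 5 mutant libraries, above both WT libraries (43.2 and 35.7 CPM), and *Tet1* lay between 205 and 342 CPM in them, below both WT libraries (494 and 592 CPM).

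*Dnmt3l* rose most of the members in both comparisons with WT. It lies on chromosome 10 (GRCm38, chr10:78041947-78063622, plus strand) and had 79.4, 100.0 and 93.9 CPM in the H19Ter+neo libraries, 94.3 and 85.9 CPM in the H19Ter libraries, and 43.2 and 35.7 CPM in the WT libraries. Every mutant library was above both WT libraries, and the ranges of the 2 mutants overlapped. The log2 fold change against WT was 1.21 in H19Ter+neo (SE 0.11, limma adjusted p = 2.33e-05) and 1.20 in H19Ter (SE 0.12, limma adjusted p = 0.00033). Of all genes, 9.63% had a log2 fold change at least as high in H19Ter+neo and 5.70% in H19Ter. Between the mutants the difference was 0.01 (95% interval -0.23 to 0.25, limma adjusted p = 0.951), and its sign changed in 4 of the alternatives tried. Summed endothelial markers moved in the same direction as *Dnmt3l* and the other members that rose, at 40.5 to 46.1 CPM in H19Ter+neo, 42.0 to 42.2 CPM in H19Ter and 28.49 to 28.53 CPM in WT over 7 of 8 listed genes (*Esam* had no value). No endothelial marker with a value was under 1 CPM in all libraries, and their part in these results was not tested. An exonic stretch of 67 bases of *Dnmt3l* lies under exons of *Aire* on the other strand. The paper describes the libraries as directional, but the strand setting of the counting was not found in the labels or methods. RefSeq gives 3 transcription starts for *Dnmt3l*, and the 250 bases before each are shown because this gene rose most (GRCm38.p6, plus strand). Capitals mark the GC box GGGCGG (present on either strand in 32.7% of 32851 such windows in the annotation) and the CCAAT box CCAAT (33.8%), each searched on both strands together with the E2F-type motifs TTTCCCGC (0.895%) and TTTGGCGC (0.417%), and only the second window holds any of them.
Dnmt3l, chr10:78042037-78042286: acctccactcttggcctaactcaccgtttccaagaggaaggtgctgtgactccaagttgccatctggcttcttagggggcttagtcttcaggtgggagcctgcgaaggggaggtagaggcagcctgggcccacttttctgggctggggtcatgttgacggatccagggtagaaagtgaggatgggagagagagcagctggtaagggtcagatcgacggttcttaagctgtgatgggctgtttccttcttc
Dnmt3l, chr10:78049592-78049841: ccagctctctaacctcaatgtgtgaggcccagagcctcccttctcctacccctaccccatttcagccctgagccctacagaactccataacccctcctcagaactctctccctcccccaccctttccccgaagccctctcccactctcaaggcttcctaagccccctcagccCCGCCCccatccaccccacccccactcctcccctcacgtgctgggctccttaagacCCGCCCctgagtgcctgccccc
Dnmt3l, chr10:78055085-78055334: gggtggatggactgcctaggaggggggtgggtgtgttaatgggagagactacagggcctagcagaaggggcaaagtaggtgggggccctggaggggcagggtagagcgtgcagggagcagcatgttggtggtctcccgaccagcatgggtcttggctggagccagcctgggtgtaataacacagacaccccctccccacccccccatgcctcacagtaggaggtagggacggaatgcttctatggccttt
These windows hold 5, 4 and 3 CpG dinucleotides, against a median of 6 over all windows, and 55.6%, 62.2% and 71.0% of windows hold at least as many. All of the *Dnmt3l* windows lie inside the gene span given above, so they may hold transcribed sequence.

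*Dnmt3a*, the de novo enzyme that DNMT3L stimulates, had the most read pairs of the de novo group and lies at chr12:3806007-3914443. It had 327, 386 and 349 CPM in H19Ter+neo, 380 and 392 CPM in H19Ter, and 308 and 288 CPM in WT. All 5 mutant libraries were above both WT libraries, although H19Ter+neo replicate 5 and WT replicate 1 were close. The log2 fold change was 0.25 in H19Ter+neo (SE 0.07, limma adjusted p = 0.0142) and 0.38 in H19Ter (SE 0.08, limma adjusted p = 0.00856). Both calls were lost without WT replicate 2 (0.20, limma adjusted p = 0.128, and 0.33, limma adjusted p = 0.0858) and after correction for GC content and length (0.17, limma adjusted p = 0.0601, and 0.13, limma adjusted p = 0.216), and the call in H19Ter was also lost without H19Ter replicate 4 (0.35, limma adjusted p = 0.0668). Between the mutants the difference was -0.13 (95% interval -0.29 to 0.03, limma adjusted p = 0.207), or 0.04 after the GC and length correction (limma adjusted p = 0.748). Of its exonic bases, 133 lie under the antisense gene *Dnmt3aos*, whose reads cannot be told apart if the counting ignored strand.

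*Dnmt3b* (chr2:153649450-153687730) encodes another catalytic de novo enzyme and was low in these cells. It had 19.4, 19.8 and 20.1 CPM in H19Ter+neo, 23.9 and 22.0 CPM in H19Ter, and 14.4 and 14.3 CPM in WT. The 3 groups did not overlap, with H19Ter highest and WT lowest. Against WT, the log2 fold change was 0.46 in H19Ter+neo (SE 0.08, limma adjusted p = 0.00118) and 0.67 in H19Ter (SE 0.09, limma adjusted p = 0.00138). The difference between the mutants, -0.21 (95% interval -0.40 to -0.03), missed the threshold (limma adjusted p = 0.082). It passed when every library was scaled to the same total (-0.28, limma adjusted p = 0.0357) and was -0.063 after the GC and length correction (limma adjusted p = 0.597).

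*Dnmt3c*, which lies beside *Dnmt3b* on chromosome 2 (chr2:153696652-153729907) and is annotated as protein-coding in GENCODE vM21, had the fewest read pairs of the members, between 300 and 1056 a library. It had 6.52, 12.1 and 10.3 CPM in H19Ter+neo, 8.72 and 8.38 CPM in H19Ter, and 6.70 and 6.94 CPM in WT. H19Ter+neo replicate 5 was the lowest of all libraries and replicate 6 the highest, so that group spanned the others, while both H19Ter libraries were above both WT libraries. The log2 fold change was 0.45 in H19Ter+neo (95% interval -0.02 to 0.92, limma adjusted p = 0.0937) and 0.32 in H19Ter (-0.19 to 0.84, limma adjusted p = 0.327), and neither was called. Single libraries decided the values of H19Ter+neo. Without replicate 5 the log2 fold change was 0.71 against WT (limma adjusted p = 0.000829) and 0.39 against H19Ter (limma adjusted p = 0.0473), while without replicate 6 it was 0.27 against WT (limma adjusted p = 0.284) and -0.059 against H19Ter (limma adjusted p = 0.859), and after correction for GC content and length it was 0.56 against WT (limma adjusted p = 0.0426). Of the 50-base windows of its transcripts, 23.6% occur in other genes, and 514 windows are shared with *Dnmt3b* (9.81% of the windows of *Dnmt3b* occur elsewhere). The counts of these 2 genes are therefore less certain, those of *Dnmt3c* more so, and how reads from shared windows were counted was not checked.

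*Tet1* fell most of the members in both comparisons with WT. It encodes the dioxygenase best known from primordial germ cells, where it takes part in the removal of methylation at imprinted genes, and lies on chromosome 10 (chr10:62804570-62908996, minus strand). It had 277, 207 and 205 CPM in H19Ter+neo, 342 and 312 CPM in H19Ter, and 494 and 592 CPM in WT. The 3 groups did not overlap, and H19Ter+neo was the lowest. The fitted log2 fold change was -1.25 in H19Ter+neo (SE 0.12, limma adjusted p = 3.74e-05) and -0.73 in H19Ter (SE 0.14, limma adjusted p = 0.00535), and 3.17% and 3.66% of all genes had values at least as low. Against H19Ter, *Tet1* was lower by a further 1.43-fold in H19Ter+neo (log2 fold change -0.52, SE 0.12, limma adjusted p = 0.0123). Leaving out WT replicate 2 ended the call in H19Ter (-0.60, limma adjusted p = 0.0658), and the call between the mutants was lost without H19Ter replicate 3 (-0.45, limma adjusted p = 0.109). The 250 bases before the start that RefSeq gives for *Tet1* are shown as the counterpart to *Dnmt3l* (GRCm38.p6, minus strand, GC box in capitals).
Tet1, chr10:62887325-62887574: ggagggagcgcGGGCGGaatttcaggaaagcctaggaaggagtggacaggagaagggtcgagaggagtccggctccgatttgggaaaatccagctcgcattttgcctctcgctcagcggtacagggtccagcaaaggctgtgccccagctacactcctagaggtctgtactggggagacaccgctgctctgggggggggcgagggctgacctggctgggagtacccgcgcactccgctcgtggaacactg
It holds 15 CpG dinucleotides, a number that 27.3% of windows reach, and 1 GC box. The *Tet1* window also lies inside the span of its gene and may hold transcribed sequence.

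*Tet2* (chr3:133463679-133545139), a dioxygenase without a CXXC domain of its own, had 183, 175 and 180 CPM in H19Ter+neo, 211 and 231 CPM in H19Ter, and 214 and 216 CPM in WT. The H19Ter+neo libraries were below all others, and the WT values lay between the 2 H19Ter values. The log2 fold change was -0.26 against WT (SE 0.06, limma adjusted p = 0.00407) and -0.30 against H19Ter (SE 0.06, limma adjusted p = 0.00465). After correction for GC content and length it was -0.41 against WT, and the call against H19Ter was lost without H19Ter replicate 4 (-0.24, limma adjusted p = 0.0649). In H19Ter against WT the difference was 0.04 (95% interval -0.10 to 0.19, limma adjusted p = 0.65).

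*Tet3* (chr6:83362373-83459084), the dioxygenase best known for oxidising the paternal genome in the zygote, moved opposite to *Tet1*. It had 62.9, 66.9 and 72.9 CPM in H19Ter+neo, 79.4 and 79.9 CPM in H19Ter, and 51.7 and 43.9 CPM in WT. The 3 groups did not overlap, and H19Ter was the highest. Against WT, the log2 fold change was 0.50 in H19Ter+neo (SE 0.09, limma adjusted p = 0.000902) and 0.74 in H19Ter (SE 0.10, limma adjusted p = 0.00109), that value being 0.48 after the GC and length correction (limma adjusted p = 0.00178). The mutants differed by -0.24 (95% interval -0.44 to -0.04, limma adjusted p = 0.0664), which passed the threshold with every library at the same total (-0.31, limma adjusted p = 0.0343) and without H19Ter+neo replicate 7 (-0.30, limma adjusted p = 0.0316). After the GC and length correction the mutants differed by -0.043 (limma adjusted p = 0.685).

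*Dnmt1* (chr9:20907209-20959888) and *Uhrf1* (chr17:56303321-56323486), the maintenance pair, were lower in H19Ter+neo than in both other genotypes. *Dnmt1* had 149, 154 and 169 CPM in H19Ter+neo, 214 and 207 CPM in H19Ter, and 214 and 232 CPM in WT. *Uhrf1* had 47.0, 44.9 and 47.2 CPM in H19Ter+neo, 57.4 and 53.4 CPM in H19Ter, and 55.7 and 60.8 CPM in WT. For both genes the H19Ter+neo libraries were below the rest, and the H19Ter and WT ranges overlapped. For *Dnmt1* the log2 fold change was -0.51 against WT (SE 0.07, limma adjusted p = 0.000206) and -0.43 against H19Ter (SE 0.07, limma adjusted p = 0.00184), the second being -0.24 after the GC and length correction (limma adjusted p = 0.0265). For *Uhrf1* it was -0.33 against WT (SE 0.07, limma adjusted p = 0.00339), or -0.21 after that correction (limma adjusted p = 0.0243) and -0.27 without WT replicate 2 (limma adjusted p = 0.0504), which ended the call.

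The *Uhrf1* difference between the mutants was smaller, at -0.26 (SE 0.07, limma adjusted p = 0.0252). That call was lost after the GC and length correction (-0.11, limma adjusted p = 0.274), with all libraries thinned to the shallowest (-0.22, limma adjusted p = 0.0537), without H19Ter replicate 3 (-0.20, limma adjusted p = 0.199) or 4 (-0.31, limma adjusted p = 0.063), and without H19Ter+neo replicate 6 (-0.23, limma adjusted p = 0.0635). In H19Ter against WT, *Dnmt1* differed by -0.08 (95% interval -0.25 to 0.09, limma adjusted p = 0.464) and *Uhrf1* by -0.07 (-0.25 to 0.10, limma adjusted p = 0.533). For *Dnmt1* that difference was -0.21 after the GC and length correction (limma adjusted p = 0.0546) and -0.0007 with every library at the same total (limma adjusted p = 0.996). Of the 50-base windows of *Uhrf1* transcripts, 15.4% occur in other genes, mostly *Gm5648* and *Gm15953*, so its counts are less certain than those of *Dnmt1* (0.761%). The CpG-richest of the windows before their RefSeq starts are shown because these genes were called together in the same comparisons (GRCm38.p6, minus strand for *Dnmt1* and plus strand for *Uhrf1*). Capitals mark GC and CCAAT boxes, of which a forward and a reverse CCAAT overlap by 2 bases near the 5′ end of the *Dnmt1* window.
Dnmt1, chr9:20952624-20952873: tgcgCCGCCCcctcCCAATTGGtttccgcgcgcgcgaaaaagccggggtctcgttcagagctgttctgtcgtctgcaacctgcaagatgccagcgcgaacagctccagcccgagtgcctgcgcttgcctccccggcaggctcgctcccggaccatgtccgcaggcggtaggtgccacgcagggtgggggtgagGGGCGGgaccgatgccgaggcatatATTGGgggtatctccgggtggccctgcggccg
Uhrf1, chr17:56304063-56304312: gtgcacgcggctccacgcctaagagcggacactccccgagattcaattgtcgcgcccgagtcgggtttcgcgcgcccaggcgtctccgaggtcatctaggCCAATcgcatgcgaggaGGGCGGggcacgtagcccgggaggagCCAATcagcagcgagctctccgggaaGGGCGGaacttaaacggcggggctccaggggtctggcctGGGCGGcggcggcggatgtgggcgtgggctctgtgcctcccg
The *Dnmt1* window holds 26 CpG dinucleotides, 2 GC boxes and 3 CCAAT boxes, and the *Uhrf1* window 30, 3 and 2, while neither holds an E2F-type motif. Both windows lie inside the spans of their genes and may hold transcribed sequence.

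**Figure D2:**
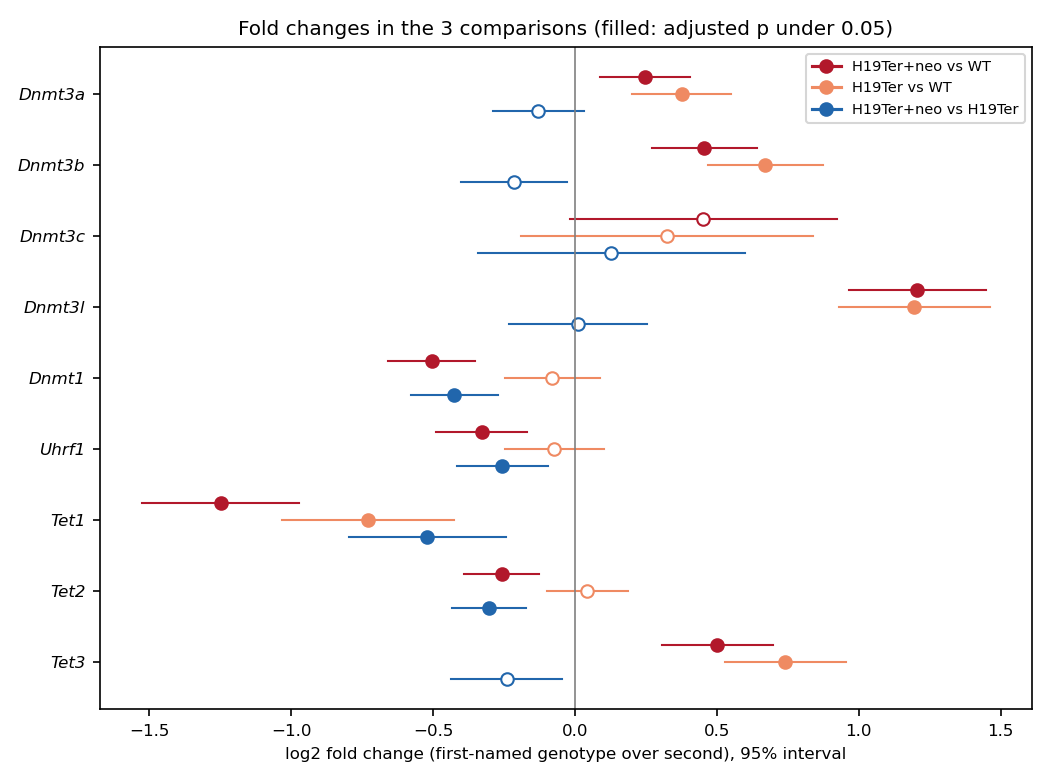
For each gene (vertical axis) the points give the log2 fold change of the first-named genotype over the second (horizontal axis) and the lines its 95% interval, with filled points where the limma adjusted p was under 0.05. *Dnmt3l* stands at 1.21 and 1.20 against WT and at 0.01 between the mutants, while *Tet1* stands left of 0 in all 3 comparisons.

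The groups were separated for 8 of 9 genes in H19Ter+neo against WT, with no overlap of libraries, where 71.8% of all genes were so separated. This held for 6 of 9 in H19Ter against WT (67.5% of all genes) and 6 of 9 in H19Ter+neo against H19Ter (56.3%). All 5 mutant libraries were above both WT libraries for *Dnmt3a*, *Dnmt3b*, *Dnmt3l* and *Tet3* (4 of 9, against 24.1% of all genes) and below both for *Tet1* (1 of 9, against 23.8%). Within H19Ter+neo, replicate 5 had the lowest *Dnmt3l*, *Dnmt3a* and *Dnmt3c* and the highest *Tet1* values of its group. That library also had the most Leydig (32.0 CPM, against 8.13 and 6.19), interstitial and peritubular (90.9 CPM, against 50.8 and 56.7) and Sertoli markers (39.9 CPM, against 30.4 and 33.2) of its group, whose part in these values was not tested. Within WT, replicate 2 had the higher *Tet1*, *Dnmt1* and *Uhrf1* values and the lower *Dnmt3l*, *Dnmt3a* and *Tet3* values.

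Levels of different genes were compared per kb of exon, as CPM divided by the merged exon length. In H19Ter+neo *Dnmt3l* came first (30.5 ± 3.53 CPM per kb, SD, n = 3), followed by *Dnmt1* (21.3) and *Dnmt3a* (21.3), whose libraries overlapped, *Tet1* (14.9), *Uhrf1* (10.9) and *Tet2* (10.6), which overlapped too, and *Dnmt3c* (4.34), *Tet3* (4.05) and *Dnmt3b* (3.87), which could not be ordered. In H19Ter the order was *Dnmt3l* (30.1) and *Dnmt1* (28.6), which overlapped, *Dnmt3a* (23.2), *Tet1* (21.1), *Tet2* (13.1) and *Uhrf1* (13.0), which overlapped, and *Tet3* (4.77), *Dnmt3b* (4.49) and *Dnmt3c* (3.85). In WT *Tet1* came first (35.1), then *Dnmt1* (30.2), *Dnmt3a* (17.9), *Uhrf1* (13.7), *Dnmt3l* (13.2) and *Tet2* (12.7), the neighbours among these last 3 overlapping, and *Dnmt3c* (3.07), *Tet3* (2.86) and *Dnmt3b* (2.82), which overlapped. *Dnmt3l* thus held rank 1 in both mutants and rank 5 in WT, also with the longest transcript as the length (50.0 CPM per kb in H19Ter+neo, 49.4 in H19Ter and 21.6 in WT). *Tet1* held rank 4 in both mutants and rank 1 in WT by exon length, but rank 5 in both mutants and rank 2 in WT by the longest transcript, where *Dnmt1* (38.0) came before *Tet1* (37.8) in WT.

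Within the DNMT3 family, *Dnmt3l* made up 50.8% ± 0.679 of the summed level per kb in H19Ter+neo (SD, n = 3), 48.8% ± 1.76 in H19Ter and 35.6% ± 2.34 in WT (n = 2 each), and *Dnmt3a* 35.5%, 37.6% and 48.4% in the same genotypes. Within the TET family, *Tet1* made up 50.1% ± 4.34 in H19Ter+neo, 54.1% ± 2.83 in H19Ter and 69.1% ± 3.09 in WT, and *Tet3* 13.8%, 12.2% and 5.69%. None of the libraries of a mutant overlapped WT in these shares. Ratios taken within a library do not depend on scaling between libraries. The *Dnmt3l* to *Dnmt3a* ratio of CPM was 0.257 in H19Ter+neo, 0.234 in H19Ter and 0.132 in WT. The *Tet3* to *Tet1* ratio was 0.302, 0.244 and 0.0894, and the *Dnmt3a* to *Dnmt1* ratio was 2.26, 1.83 and 1.34. The *Uhrf1* to *Dnmt1* ratio differed less, at 0.296 in H19Ter+neo (0.279 to 0.316), 0.263 in H19Ter (0.257 to 0.268) and 0.261 in WT (0.260 to 0.262). Its H19Ter+neo libraries were still above all others.

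**Figure D3:**
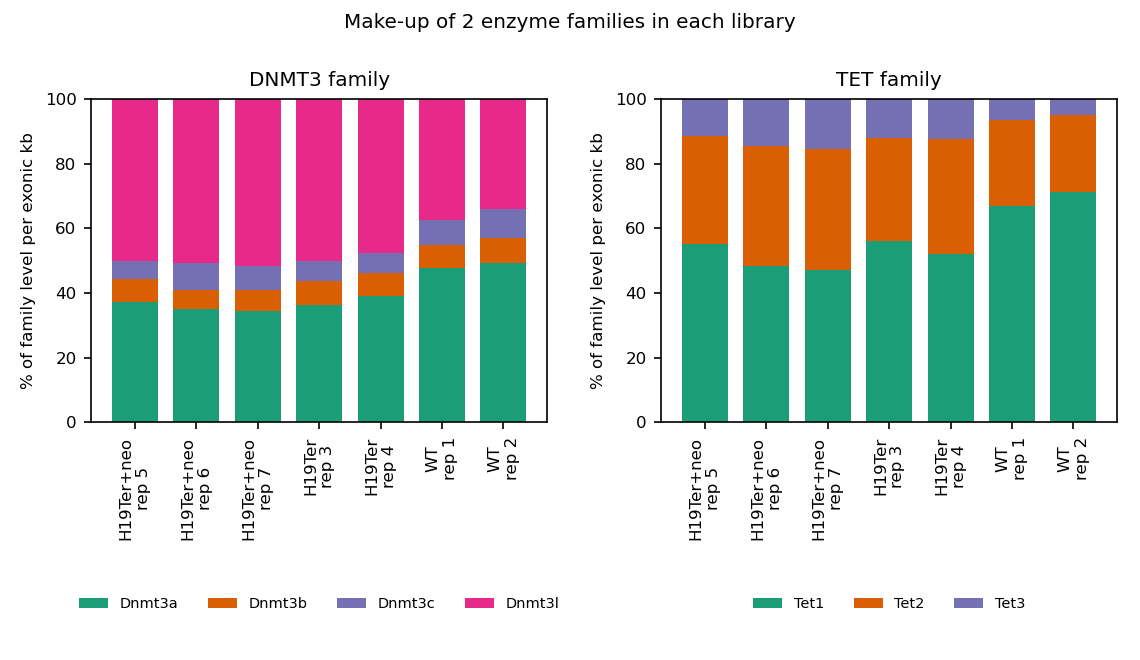
Stacked bars give the share of each gene in the summed level per exonic kb of its family (vertical axis, percent) in each of the 7 libraries (horizontal axis), for the DNMT3 family on the left and the TET family on the right. *Dnmt3l* takes 47.6% to 51.6% in the mutant libraries and 34.0% to 37.3% in WT, and *Tet1* takes 47.0% to 56.1% in the mutant libraries and 67.0% to 71.3% in WT.

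Genes that act with these enzymes were counted from lists by function. Where 0 genes of a list were called by limma in a direction (14 counts), limma voom on the recovered reads also called 0, and at an unadjusted p under 0.05 the count was 0 in 12 of them and 1 in the other 2 (maintenance partners higher in H19Ter against WT, mitotic genes higher in H19Ter+neo against H19Ter). Some other alternatives called 1 gene. Maintenance partners had 1 higher in H19Ter against WT at the same total and in H19Ter+neo against WT after correction for GC content and length. Between the mutants, 1 maintenance partner and 1 gene of oxidised-base removal were higher without H19Ter+neo replicate 7, and 1 mitotic gene without replicate 6. Of 10 genes of piRNA-directed DNA methylation, the pathway that guides methylation to retrotransposons in prospermatogonia, 9 were higher and 0 lower in H19Ter+neo against WT. Their median log2 fold change was 0.59, against 0.01 over all genes, of which 27.7% were called higher and 26.7% lower. In H19Ter against WT 4 were higher and 0 lower (median 0.24, against -0.01, with 14.1% of all genes called higher). In H19Ter+neo against H19Ter 5 were higher and 0 lower (median 0.22, against 0.01, with 12.5% of all genes called higher). The count in H19Ter against WT was 2 without WT replicate 2 or H19Ter replicate 4 and 7 with every library at the same total, and that between the mutants was 2 without H19Ter replicate 3 and 3 at the same total. *Piwil4*, the nuclear PIWI protein of these cells, averaged 465 CPM in H19Ter+neo, 357 CPM in H19Ter and 257 CPM in WT, with log2 fold changes against WT of 0.85 (SE 0.09, limma adjusted p = 5.5e-05) and 0.47 (SE 0.10, limma adjusted p = 0.00896). *Morc1*, an ATPase needed for retrotransposon silencing, averaged 481, 419 and 306 CPM in the same genotypes and was called in both mutants against WT. *Mael* (821, 613 and 576 CPM) and *Gtsf1* (115, 86.4 and 75.8 CPM), both piRNA pathway factors, were called higher in H19Ter+neo against either other genotype, but not in H19Ter against WT (0.09, limma adjusted p = 0.288, and 0.19, limma adjusted p = 0.086).

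Of 9 partners of maintenance methylation, 5 were lower and 0 higher in H19Ter+neo against WT, 3 and 0 in H19Ter against WT, and 2 and 0 between the mutants. The 5 of 9 called in H19Ter+neo against WT stand beside 54.4% of all genes called there, a share near that of the list. All 5 were lower, against 26.7% of all genes called lower. In H19Ter against WT 25.1% of all genes were called (11.0% lower), and between the mutants 27.7% (15.2% lower). The 5 became 2 without WT replicate 2 and 3 without H19Ter+neo replicate 6, and the 3 became 0 without WT replicate 2, H19Ter replicate 3 or H19Ter replicate 4 and 1 by limma voom. The 2 between the mutants became 1 without H19Ter replicate 3 or 4 or H19Ter+neo replicate 6 or 7. *Usp7*, the deubiquitinase that binds DNMT1 and UHRF1, averaged 295 CPM in H19Ter+neo, 338 CPM in H19Ter and 419 CPM in WT and was called lower in all 3 comparisons. *Lig1*, the replicative DNA ligase, averaged 127, 180 and 164 CPM and was lower in H19Ter+neo against WT (-0.37, limma adjusted p = 0.000719) and H19Ter (-0.50, limma adjusted p = 0.000473). *Hells*, a chromatin remodeller needed for methylation, averaged 282, 287 and 361 CPM and was lower in both mutants against WT. *Pcna*, the replication clamp, was called in H19Ter against WT (-0.54, limma adjusted p = 0.0262) and had -0.34 in H19Ter+neo (limma adjusted p = 0.0532).

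Of 21 genes of oxidised-base removal and TET partners, 12 were lower and 1 higher in H19Ter+neo against WT. Their median log2 fold change was -0.41, against 0.01 over all genes, of which 26.7% were called lower and 27.7% higher. In H19Ter against WT 1 was lower and 1 higher, a smaller share than the 25.1% of all genes called there. In H19Ter+neo against H19Ter 6 were lower and 0 higher, near the 27.7% of all genes called there (15.2% lower). The count of lower genes between the mutants was 1 without H19Ter replicate 3 and 2 without H19Ter replicate 4, and that in H19Ter against WT was 6 after the GC and length correction. *Tdg*, the glycosylase that excises the oxidised bases made by TET enzymes, averaged 15.6 CPM in H19Ter+neo, 19.2 CPM in H19Ter and 23.8 CPM in WT (-0.60 in H19Ter+neo against WT, SE 0.10, limma adjusted p = 0.000575). *Xrcc1*, a scaffold of single-strand break repair, averaged 46.3, 80.1 and 83.6 CPM and fell by 0.85 on the log2 scale in H19Ter+neo against WT (SE 0.06, limma adjusted p = 9e-06). *Smug1* and *Mbd4*, both DNA glycosylases, were likewise called lower in H19Ter+neo against WT (-0.61 and -0.65) and against H19Ter (-0.34 and -0.47). None of these 4 was called in H19Ter against WT.

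Of 14 genes of methyl donor supply with values (*Bhmt* and *Gnmt* had none), 7 were lower and 1 higher in H19Ter+neo against WT, 5 and 0 in H19Ter against WT, and 3 and 0 between the mutants. The 8 of 14 called in the first of these comparisons are near the 54.4% of all genes called in it, but 7 of the 8 were lower, against 26.7% of all genes. In H19Ter against WT 25.1% of all genes were called (11.0% lower), and between the mutants 27.7% (15.2% lower). The 5 became 0 without WT replicate 2, 1 without H19Ter replicate 4 and 2 without H19Ter replicate 3, and the 3 became 1 without H19Ter replicate 4. *Mthfd1*, an enzyme of folate metabolism, averaged 27.7 CPM in H19Ter+neo, 42.5 CPM in H19Ter and 63.8 CPM in WT and was called lower in all 3 comparisons. *Shmt2* and *Tyms*, enzymes of the same metabolism, were lower in both mutants against WT (-0.56 and -0.48 for *Shmt2*, -0.57 and -0.34 for *Tyms*), and *Mtrr* in H19Ter+neo against WT (-0.42) and H19Ter (-0.30). Of 10 genes that make or use 2-oxoglutarate, the TET cosubstrate, or clear its reduced form, 5 were lower and 1 higher in H19Ter+neo against WT, 1 and 0 in H19Ter against WT, and 3 and 2 between the mutants. These 6 of 10 called in H19Ter+neo against WT are likewise near 54.4%. The 5 became 3 without WT replicate 2, and the 3 became 1 without H19Ter replicate 3. *D2hgdh*, which oxidises 2-hydroxyglutarate, had 16.3 CPM in H19Ter+neo, 8.34 CPM in H19Ter and 22.7 CPM in WT, the lowest level being in H19Ter (-1.46 against WT, SE 0.19, limma adjusted p = 0.0011). *Idh2* (-0.69) and *Ogdh* (-0.43) were lower and *Idh3g* (0.29) higher in H19Ter+neo against WT. Of 10 readers of methylated or unmethylated CpG, 2 were lower and 4 higher in H19Ter+neo against WT, 0 and 2 in H19Ter against WT, and 2 and 2 between the mutants. The 6 of 10 called in H19Ter+neo against WT are again near 54.4% of all genes (27.7% higher and 26.7% lower). Without WT replicate 1 the 4 higher became 2 and the 2 lower became 1, and without WT replicate 2 the 2 lower became 1. The 2 higher in H19Ter against WT became 0 without H19Ter replicate 3 or WT replicate 2 and 1 without H19Ter replicate 4, without WT replicate 1, by limma voom or after the GC and length correction. Between the mutants both counts became 0 without H19Ter replicate 3 or 4. *Mbd3* was lower (-0.53) and *Cxxc1* (0.48), *Zbtb4* (0.77) and *Zbtb33* (0.25) were higher in H19Ter+neo against WT.

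Of 18 genes of the mitotic cycle, 13 were lower and 0 higher in H19Ter+neo against WT (median log2 fold change -0.56, with 26.7% of all genes called lower). In H19Ter against WT 12 were lower and 0 higher (median -0.45, with 11.0% of all genes called lower). Between the mutants 7 of these mitotic genes were lower and 0 higher (median -0.16, with 15.2% of all genes called lower). Their summed level was 1835, 1577 and 1678 CPM in H19Ter+neo, 1872 and 1757 CPM in H19Ter, and 2187 and 2426 CPM in WT. *Mki67*, a marker of proliferating cells, averaged 74.2 CPM in H19Ter+neo, 113 CPM in H19Ter and 233 CPM in WT (-1.68 and -1.05 against WT, limma adjusted p = 0.000124 and 0.0102). *Plk1* (-1.24 and -0.69) and *Mcm2* (-0.94 and -0.66) were lower in both mutants against WT, and *Mcm7* in H19Ter+neo against WT (-0.51) and H19Ter (-0.40). The count in H19Ter against WT was 2 without WT replicate 2 or H19Ter replicate 4, 5 without H19Ter replicate 3 and 7 without WT replicate 1, and that between the mutants was 3 without H19Ter replicate 3 and 4 without H19Ter+neo replicate 6. Like *Tet1*, this sum was lower in every mutant library than in WT, and H19Ter+neo replicate 5 and WT replicate 2 were the highest of their groups in both. The sums of the 2 mutants overlapped, while their *Tet1* values did not. *Dnmt1* and *Uhrf1* were not called in H19Ter against WT, where 12 of the 18 mitotic genes were lower. The part of mitotic cells in the changes of *Tet1*, *Dnmt1*, *Uhrf1* and *Dnmt3l* was not tested.

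**Figure D4:**
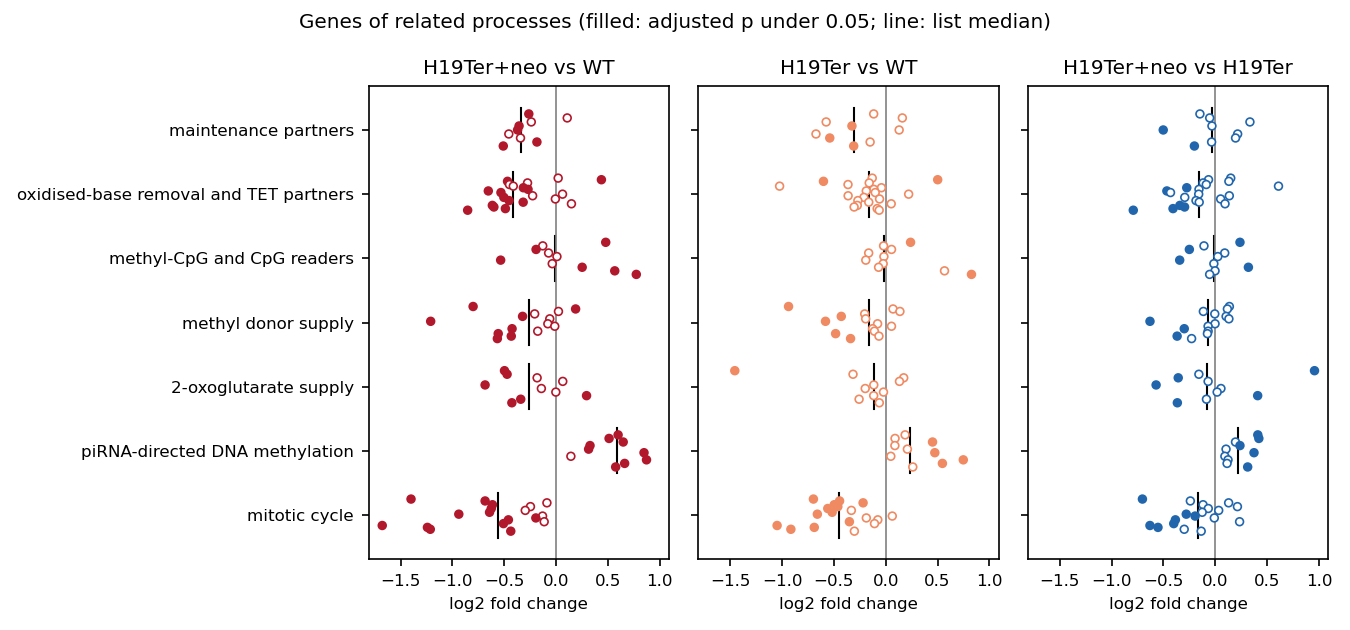
Each point is 1 gene of a list (vertical axis) at its log2 fold change (horizontal axis) in 1 of the 3 comparisons, filled where the limma adjusted p was under 0.05, with a line at the list median. In H19Ter+neo against WT, 9 of 10 genes of piRNA-directed DNA methylation are filled and right of 0, and 13 of 18 mitotic genes are filled and left of 0. Of all genes, 27.7% were called higher and 26.7% lower in that comparison.

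The genes whose log2 values followed a member most closely over the 7 libraries are given as a description among 5636 genes whose mean log2 value was 5 or more. For *Dnmt3l* they were *Zfp618* (Pearson r 0.993) and *Vwf* (0.991), and *Vwf*, which encodes von Willebrand factor, is best known from endothelial cells. The mean log2 value of *Vwf* was 7.87 in H19Ter+neo, 7.82 in H19Ter and 6.88 in WT, and which cells it came from was not tested. For *Tet1* they were *Ap3b2* (0.998) and *Slbp* (0.998), the second encoding the protein that binds the stem-loop of replicative histone mRNAs. For *Dnmt3a* they were *1700037H04Rik* and *Ubap1*, for *Dnmt3b* *Mcam* and *Msi1*, for *Dnmt1* *Xrcc6* and *Ogdh*, for *Uhrf1* *Ppp4r1* and *Ubap2l*, for *Tet2* *Mideas* and *Cwc27*, and for *Tet3* *Ptprf* and *Slit3*, with r between 0.977 and 0.996. A correlation above 0.9 was reached by 1071 of these genes for *Tet1*, by 779 for *Uhrf1* and by 743 for *Dnmt1*, but by 58 for *Dnmt3b*, and the 7 libraries share genotype groups and differ in depth.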

How the data were processed

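Total RNA-seq of prospermatogonia was analysed in 7 libraries grouped by the genotype in the labels. Per the submitters' processing notes, the authors used Trim Galore 0.6.0, STAR 2.7.8 (genome mm10), deepTools and edgeR. The deposited values are log2 CPM made by the authors with a mean prior count of 2. With log and prior undone, 100% of values in every library came out as whole read pairs (tolerance 0.0001), with totals of 37.5 to 87.3 M.

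limma 3.58.1 (R 4.3.3, empirical Bayes with trend) was fitted to the deposited values of all 7 libraries with genotype as the only factor and 4 residual degrees of freedom. A run on simulated data used a fixed spread and far fewer changed genes than were called here, so it does not measure the error of these calls. Gene positions, lengths and shared sequence came from GENCODE vM21 (the release the authors used was not found in the labels or methods), and windows before starts from RefSeq, GRCm38.p6, which covered 8 of 9 members (15 starts). The members and lists were chosen with earlier results of these data known. The rule for named genes took all members, up to 4 genes a list with the smallest p in any comparison, and the 2 genes most correlated with each member called. Alternatives changed scaling, pseudocount, low-value filter, libraries, depth, test and a correction that removed each library's trend on GC content and length (loess span 0.5). Figures were drawn with matplotlib 3.10.9.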

Additional observations from a re-analysis of the deposited data

How the results depend on the processing

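Of 405 alternative log2 fold changes of the members, 376 kept their direction and side of the threshold, 14 fell short of it, 6 passed it and 9 changed sign. All 9 sign changes concern values that were not called. *Dnmt3l* between the mutants was -0.056 with every library at the same total, and it ranged over -0.059 to 0.107 when 1 replicate was left out (below 0 without H19Ter+neo 6 or 7 or H19Ter 4). *Dnmt3c* between the mutants was -0.059 without H19Ter+neo replicate 6 and 0.386 without replicate 5, and *Dnmt3a* 0.036 after correction for GC content and length. In H19Ter against WT, *Uhrf1* was 0.0069 with every library at the same total, and *Tet2* was -0.10 after that correction and -0.022 without H19Ter replicate 4 (0.109 without replicate 3). The calls of *Dnmt3l*, *Dnmt3b* and *Tet3* in both mutants against WT held under all 15 alternatives. So did those of *Dnmt1*, *Tet1* and *Tet2* in H19Ter+neo against WT, and that of *Dnmt1* between the mutants. The cause of the other changes was not tested.

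Leaving out 1 replicate gave 7730 to 11118 genes called in H19Ter+neo against WT (6 to 9 members), 1408 to 5870 in H19Ter against WT (3 to 5 members) and 2326 to 5404 between the mutants (2 to 5 members). The lowest counts were without WT replicate 2 in both comparisons with WT, and without H19Ter replicate 3 between the mutants. In H19Ter against WT, 5187 genes were called, against 3092 by limma voom on the recovered reads. The planned edgeR test was not run, and limma voom on the recovered reads was used in its place. No paired analysis was possible because the groups share no replicate numbers.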
